A study of Mus musculus with 2 samples.

Results

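The genes of the mouse major histocompatibility complex (MHC) and of MHC antigen presentation were examined in teratomas formed by E14 cells, a mouse embryonic stem cell (ESC) line, and by E14-Sox2TA/WT cells. The members were the 36 protein coding genes of the deposited expression table whose symbol starts with H2-, together with B2m, Tap1, Tap2, Tapbp, Cd74, Ciita and Nlrc5, which gave 43 of the 45777 genes in the table. E14-Sox2TA/WT cells carry an alanine in place of a threonine of Sox2 (T258A) on 1 allele, and descend from a single CRISPR/Cas9-edited cell. Both lines were inoculated subcutaneously into BALB/c-nu mice, 3 per group, and teratomas were harvested 14 days later. RNA-seq of polyA RNA gave 1 library per genotype, of 50529171 reads on genes for E14 and 49030281 for E14-Sox2TA/WT. How many tumours entered each library was not stated. The age of the mice was not stated either. With 1 library per genotype no difference below was tested, and the effects of the mutation, the clone and the single tumour sample cannot be told apart. The labels name the tissue as teratoma, while their extraction note speaks of an ESC line.

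MHC class I molecules are made of a heavy chain and beta-2-microglobulin, and present peptides from inside the cell to CD8 T cells. Nearly all nucleated cells carry them, whereas undifferentiated ESCs carry few. MHC class II molecules are made of an alpha and a beta chain, are held by the invariant chain Cd74 until a peptide is loaded, and are carried mainly by macrophages, dendritic cells and B cells. The mouse genes lie in the H2 complex, where the classical class I genes H2-K1 and H2-D1 flank the class II genes, and nonclassical class I genes follow in the Q, T and M regions. Nude mice lack a thymus and most T cells but keep macrophages, dendritic cells, B cells and NK cells, so a teratoma in such a host holds donor and host cells, and the table does not separate their reads.

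Promoters of both classes share a motif called the Y box, the binding site of the factor NF-Y. Promoter windows were found in RefSeq (GRCm38.p6) for 35 of the 43 members, and 5 are printed to show the strand on which the motif lies. H2-Aa and H2-Eb1 had the highest ratios among the class II genes with a TPM (the read level per transcript length, scaled to the library) of 10 or more, H2-D1 is a classical class I gene, H2-T23 had the highest ratio among class I genes at that level, and B2m is the class I light chain. Each sequence is the 150 bases before the transcription start, 5′ to 3′ on the strand of the gene, with matches to ATTGG or CTGATTGG on either strand in capitals. The windows are at chr17:34287824-34287973, minus strand for H2-Aa, at chr17:34305717-34305866, plus strand for H2-Eb1, at chr17:35262944-35263093, plus strand for H2-D1, at chr17:36032702-36032851, minus strand for H2-T23, and at chr2:122147537-122147686, plus strand for B2m.
H2-Aa: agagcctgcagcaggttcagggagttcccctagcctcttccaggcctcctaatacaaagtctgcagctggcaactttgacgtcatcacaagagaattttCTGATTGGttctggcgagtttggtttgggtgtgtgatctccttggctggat
H2-Eb1: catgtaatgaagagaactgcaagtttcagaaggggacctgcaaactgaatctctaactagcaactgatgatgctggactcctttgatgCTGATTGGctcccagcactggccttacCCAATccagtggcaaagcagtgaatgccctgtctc
H2-D1: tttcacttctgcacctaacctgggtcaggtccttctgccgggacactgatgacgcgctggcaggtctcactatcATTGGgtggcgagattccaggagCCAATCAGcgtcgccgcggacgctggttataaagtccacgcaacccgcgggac
H2-T23: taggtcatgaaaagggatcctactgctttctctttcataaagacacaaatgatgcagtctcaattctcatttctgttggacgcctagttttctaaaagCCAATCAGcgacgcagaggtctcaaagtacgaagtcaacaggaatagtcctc
B2m: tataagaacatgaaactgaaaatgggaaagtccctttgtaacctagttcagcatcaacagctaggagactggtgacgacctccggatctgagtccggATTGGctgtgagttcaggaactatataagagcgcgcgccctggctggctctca
CTGATTGG began 51 bases before the start of H2-Aa and 62 before that of H2-Eb1, on the strand of the gene. On the opposite strand, read as CCAATCAG, its match began 53 bases before the start of H2-D1 and 52 before that of H2-T23. B2m held ATTGG alone. Of the 250 bases before each start, CTGATTGG was present in 18 of the 35 members, on the strand of the gene in 4 and on the opposite strand in 14. The 4 were H2-Aa, H2-Eb1, H2-Eb2 and H2-Oa, all class II chains, and 13 of the 14 were class I heavy chains, the other being Tap1. Among all 27025 genes with such a window, 4.43% held CTGATTGG on either strand. The shorter ATTGG, which lies within it, was present in 32 of 35 members and in 37.5% of all genes. Many members derive from common ancestors, so their windows are not independent. GAAANNGAA, a form of the interferon response element, was searched on both strands. It was found in 3 of the 38 windows of the members and in 7.13% of all 32851 windows. Forms of the element with the bases in another order were not searched, so a window without a match may still hold one. The kappa B motif GGGNNTTCC was found in 9 of the 38 and 4.98% of all windows, and the gamma activated site TTCNNNGAA in 3 of the 38 and 7.02% of all windows. Some genes have more than 1 window.

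The classical class I genes, which encode the heavy chains that present peptides to CD8 T cells, were both higher in the E14-Sox2TA/WT teratoma. H2-K1 had 3482 reads and a TPM of 86.5 in E14, and 7177 reads and a TPM of 160 in E14-Sox2TA/WT. This was a ratio of 1.84, with a 95% Clopper-Pearson interval of 1.77 to 1.92. H2-D1 had 5060 and 7154 reads and a TPM of 121 and 153, a ratio of 1.27 (1.22 to 1.31). Such intervals cover only the counting error of the reads in the 2 libraries, not the spread between tumours. Neither gene passed the rule used for differentially expressed genes, a TPM ratio above 2 where either library has a TPM of 10 or more. Per unit length, H2-K1 stood at 0.715 of the H2-D1 level in E14 and at 1.04 of it in E14-Sox2TA/WT, so their order was reversed. H2-K1 lies at chr17:33996012-34000619 and H2-D1 at chr17:35263094-35267497.

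**Figure D1:**
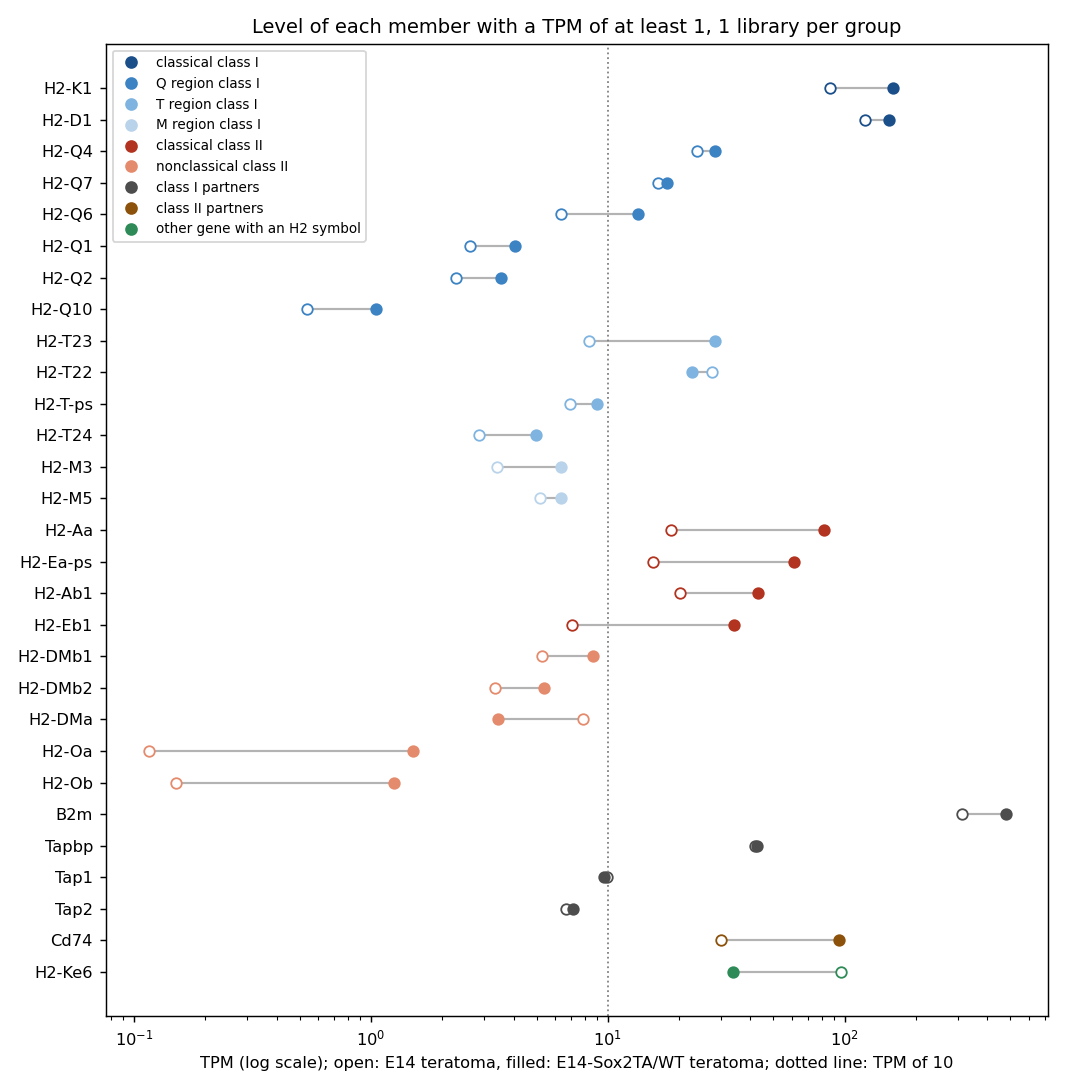
TPM on a log scale for the 29 members that reached a TPM of at least 1 in either library, grouped by class, with E14 as open and E14-Sox2TA/WT as filled points and 1 library per genotype. Filled points lie to the right of open ones for 25 members. For H2-Q10, H2-Oa and H2-Ob among them the filter fixed this, since only E14-Sox2TA/WT reached a TPM of 1. The widest gaps among genes above a TPM of 10 belong to H2-Eb1, H2-Aa, H2-Ea-ps, H2-T23 and Cd74.

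The light chain and the loading machinery differed less evenly. B2m, the light chain that class I heavy chains need to reach the surface, lies outside the complex on chromosome 2. It had 6443 reads and a TPM of 312 in E14, and 11002 reads and a TPM of 477 in E14-Sox2TA/WT, a ratio of 1.53 (1.48 to 1.58). The summed TPM of H2-K1 and H2-D1 was 208 and 313, a ratio of 1.51. The heavy chains and the light chain thus kept nearly the same proportion, since H2-K1 plus H2-D1 made 0.665 of the B2m level in E14 and 0.656 in E14-Sox2TA/WT. Tap1 and Tap2 form the transporter that moves peptides into the endoplasmic reticulum, and Tapbp encodes tapasin, which bridges it to class I. Tap1 had 702 and 763 reads and a TPM of 9.88 and 9.64, a ratio of 0.976 (0.880 to 1.08). Tap2 had a TPM of 6.67 and 7.14, a ratio of 1.07. Tapbp had a TPM of 42.0 and 42.4, a ratio of 1.01. The TPM levels of all 3 loading genes were close in the 2 libraries. Nlrc5, the transactivator of class I genes, had 111 and 175 reads and a TPM below 1 in both libraries, 0.603 and 0.852, with a ratio of 1.41 (1.11 to 1.81).

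Scaling bears on these small differences. The median log2 ratio over all genes with a TPM of at least 10, taken without a pseudocount, was -0.19 for TPM and 0.011 for reads divided by the library total. Scaled by library total, the ratios were 2.12 for H2-K1, 1.46 for H2-D1, 1.76 for B2m, 1.12 for Tap1, 1.23 for Tap2 and 1.16 for Tapbp. H2-K1 then passed the 2-fold rule, and Tap1 lay above 1 instead of below it.

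Among the nonclassical class I genes, H2-T23 stood apart in size. H2-T23 encodes Qa-1, a heavy chain that shows leader peptides of other class I molecules to NK cell receptors. It had 264 reads and a TPM of 8.32 in E14, and 1001 reads and a TPM of 28.3 in E14-Sox2TA/WT, a ratio of 3.40 (2.96 to 3.91). H2-T22, its neighbour and a ligand of some gamma delta T cells, had 1226 and 1179 reads and a TPM of 27.4 and 22.8, a ratio of 0.829 (0.765 to 0.899). The ratio of H2-T22 by library total was 0.991. Of the 50-nt stretches in H2-T22 transcripts, 34.5% also occurred in other genes, most of all H2-T10, so its reads are uncertain and its direction is not set against that of H2-T23. Without members that share 20% or more, the T region median log2 ratio was 1.14 over 2 genes, against 0.48 over 4. The 9 class I heavy chains left all had a ratio above 1, H2-Q10 through the TPM filter alone. H2-T24 had a TPM of 2.87 and 4.99, a ratio of 1.74, and H2-T-ps had 6.95 and 8.99, a ratio of 1.29. H2-T3 had no read in E14 and 6 in E14-Sox2TA/WT. Together the T region genes summed to a TPM of 45.6 and 65.1.

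The Q region encodes the Qa-2 family and related heavy chains. H2-Q6, a Qa-2 gene, had 324 reads and a TPM of 6.35 in E14, and 774 reads and a TPM of 13.4 in E14-Sox2TA/WT, a ratio of 2.12 (1.86 to 2.42). H2-Q7, its close copy, had 519 and 638 reads and a TPM of 16.3 and 17.8, a ratio of 1.09 (0.972 to 1.23). Of the 50-nt stretches in H2-Q6 transcripts, 32.0% also occurred in transcripts of other genes, most of all H2-Q7, so the division of reads between the copies is uncertain. Summed over the 6 Q genes, where such reads stay in the total, the TPM was 52.0 and 68.2, a ratio of 1.31. H2-Q4 had a TPM of 23.9 and 28.3, a ratio of 1.19. H2-Q1, H2-Q2 and H2-Q10 were lower in level, with a TPM of 2.62 and 4.07, of 2.29 and 3.53, and of 0.536 and 1.05. All 6 Q genes had a TPM ratio above 1, although the interval of H2-Q7 included 1. H2-Q10 reached a TPM of 1 in the E14-Sox2TA/WT library only.

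The M region lies farthest from the class II genes and was the quietest. H2-M3, which presents peptides with a formylated first residue, had 118 and 243 reads and a TPM of 3.42 and 6.34, a ratio of 1.86 (1.48 to 2.33). H2-M5 had a TPM of 5.20 and 6.32, a ratio of 1.22. The other 10 M genes stayed below a TPM of 1. The M10 genes are known from the vomeronasal organ, and 4 of those, H2-M10.1, H2-M10.2, H2-M10.3 and H2-M10.5, had no read in either library, nor did H2-M1. The remaining 5 had no read in E14 and between 5 and 17 in E14-Sox2TA/WT, the highest count being that of H2-M9. With 3 reads put in place of its count of 0, H2-M9 was 5.84-fold higher by library total. This value leaves out the counting error of its 17 reads and is no lower bound. No member had reads in E14 alone.

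Of the 14 class I heavy chains with a TPM of at least 1, 13 had a ratio above 1, and their median log2 ratio of TPM + 1 was 0.44, from -0.26 to 1.65. Over all 18558 genes at that level the median was -0.058, and 8819 had a ratio above 1. Over all 29 members at that level, 26 lay above that median of all genes. H2-Q10, H2-Oa and H2-Ob reached a TPM of 1 in the E14-Sox2TA/WT library only. The filter thus fixed their direction, and H2-Q10 is also among the 13. Summed over all 25 class I heavy chains the TPM was 314 and 460.

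The class II genes differed most. H2-Aa and H2-Ab1 encode the alpha and beta chains of I-A, and H2-Ea-ps and H2-Eb1 stand at the loci of the alpha and beta chains of I-E. H2-Aa had 500 reads and a TPM of 18.4 in E14, and 2465 reads and a TPM of 81.3 in E14-Sox2TA/WT, a ratio of 4.42 (4.01 to 4.87). H2-Ab1 had 579 and 1386 reads and a TPM of 20.1 and 43.2, a ratio of 2.15 (1.95 to 2.37). The intervals of these partner chains did not overlap, and H2-Aa over H2-Ab1 went from 0.913 to 1.88 per unit length. H2-Eb1 had 285 reads and a TPM of 7.07 in E14, and 1530 reads and a TPM of 34.1 in E14-Sox2TA/WT, a ratio of 4.82 (4.25 to 5.49). H2-Ea-ps had 439 and 1933 reads and a TPM of 15.5 and 61.0, a ratio of 3.95 (3.56 to 4.39). Its symbol marks a pseudogene, though the table lists it as protein coding. The I-E alpha gene is inactive in mice of the H2b haplotype, that of the C57BL/6J reference, and active in mice of the H2d haplotype, that of BALB/c. Reads of H2-Ea-ps were present in both libraries, and which cells they came from was not tested. H2-Eb2, a weakly expressed relative of H2-Eb1, had 6 and 29 reads, a TPM below 1 in both libraries, and a ratio of 3.45 (1.41 to 10.2).

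**Figure D2:**
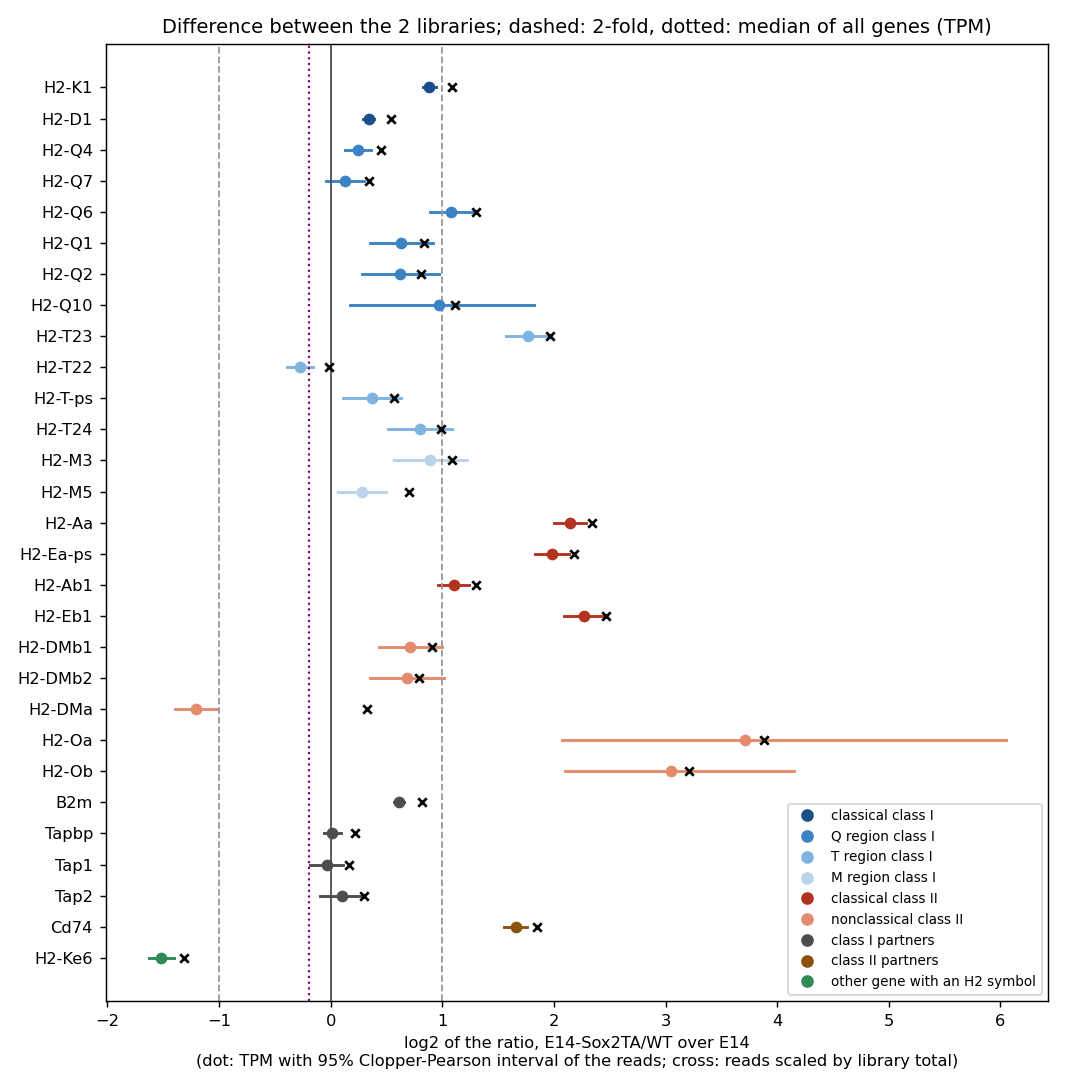
Log2 ratio of E14-Sox2TA/WT over E14 for the 29 members with a TPM of at least 1, as dots for TPM with the 95% Clopper-Pearson interval of the reads, and as crosses for reads scaled by library total. Dots of the classical class II genes and Cd74 lie beyond the dashed 2-fold line, those of most class I genes lie between 0 and that line, and the dot and cross of H2-DMa lie on opposite sides of 0.

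Cd74 and the transactivator differed in the same direction. Cd74, the invariant chain that escorts class II molecules to endosomes, lies on chromosome 18. It had 923 reads and a TPM of 29.9 in E14, and 3222 reads and a TPM of 94.3 in E14-Sox2TA/WT, a ratio of 3.15 (2.93 to 3.40). Ciita, the class II transactivator, had 34 and 93 reads and a TPM below 1 in both libraries, 0.158 and 0.388, a ratio of 2.46 (1.64 to 3.76). The summed TPM of the 5 classical class II genes was 61.2 and 220, a ratio of 3.60, and stood at 2.04 times the Cd74 level in E14 and 2.33 times in E14-Sox2TA/WT. Classical class I exceeded classical class II 3.40 times in E14 and 1.42 times in E14-Sox2TA/WT.

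The nonclassical class II genes serve peptide loading rather than display. H2-DMa and H2-DMb1 or H2-DMb2 encode the DM molecule, which removes the Cd74 fragment from the groove, and H2-Oa and H2-Ob encode DO, its inhibitor in B cells and some dendritic cells. H2-Oa had 3 and 43 reads and a TPM of 0.115 and 1.51, a ratio of 13.1 (4.20 to 66.1). H2-Ob had 10 and 90 reads and a TPM of 0.151 and 1.25, a ratio of 8.26 (4.29 to 17.8). Both reached a TPM of 1 in the E14-Sox2TA/WT library only, and their intervals are wide. H2-DMb1 had a TPM of 5.29 and 8.65, a ratio of 1.64 (1.35 to 1.99), and H2-DMb2 had 3.34 and 5.36, a ratio of 1.61 (1.28 to 2.03). H2-DMb1 and H2-DMb2 share 22.7% and 24.8% of their stretches with other genes, almost all with each other. H2-DMa had no single direction. Its TPM was 7.89 and 3.43, a ratio of 0.434, whereas its reads were 398 and 483, a ratio by library total of 1.25 (1.09 to 1.43). H2-DMa overlaps Brd2 in the annotation and has 8 transcripts in GENCODE. Among the 15677 genes with at least 50 reads in both libraries, 3% had TPM and read ratios that differed by more than 0.3 on the log2 scale, beyond the common shift. No value is therefore read as the direction of H2-DMa.

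By the 2-fold rule, 15 of the 43 members could be called, 29 had a TPM of at least 1, and 5 had no read. Of the 15, 7 were higher in E14-Sox2TA/WT, namely H2-Aa, H2-Ab1, H2-Ea-ps, H2-Eb1, Cd74, H2-T23 and H2-Q6. Among all 11578 genes that could be called, 10.8% were higher and 18.7% were lower. H2-T23, H2-Q6 and H2-Eb1 reached a TPM of 10 in the E14-Sox2TA/WT library only, so that when both libraries had to reach it 4 of 12 members were higher, beside 5.34% of all genes. The 4 classical class II genes above the filter were called higher, as was Cd74, against 2 of 7 class I heavy chains and 0 of the 2 class I partners. The split of all calls moved with scaling. Lower genes made up 63.4% of calls by TPM, 51.1% by FPKM and 50.9% by library total, while the members numbered 8 higher and 1 lower in both of the latter.

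The 1 member called lower was H2-Ke6, which bears an H2 symbol for its place in the complex but encodes a steroid dehydrogenase (also called Hsd17b8) and no MHC molecule. It had 2241 reads and a TPM of 96.6 in E14, and 875 reads and a TPM of 33.8 in E14-Sox2TA/WT. It was 2.86-fold lower. Of its 50-nt stretches, 70.5% are shared with the overlapping GENCODE gene Gm20427.

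The members were set beside the other genes of the complex. The 36 H2 genes span chr17:33996012-37483554, where 132 further protein coding genes lie. Of these neighbours, 93 had a TPM of at least 1, with a median log2 ratio of -0.27, and 33 of them had a ratio above 1. Of the 71 neighbours that could be called, 7 were higher and 14 lower, beside 10.8% and 18.7% of all genes. Those calls thus show nothing particular to the neighbours. The remaining protein coding genes of chromosome 17 and the neighbours together had a median of -0.17. The H2-symbol genes, class I and class II alike, thus lay mostly above their neighbours in ratio. With genes below a TPM of 1 left out, H2-Ab1, H2-Aa, H2-Eb1 and H2-Ea-ps followed each other and all 4 were higher, while Tap1 and Tap2, a few genes away, had ratios near 1. One neighbour directly after the Q genes was Pou5f1, the pluripotency factor Oct4, with a TPM of 19.0 and 304.

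**Figure D3:**
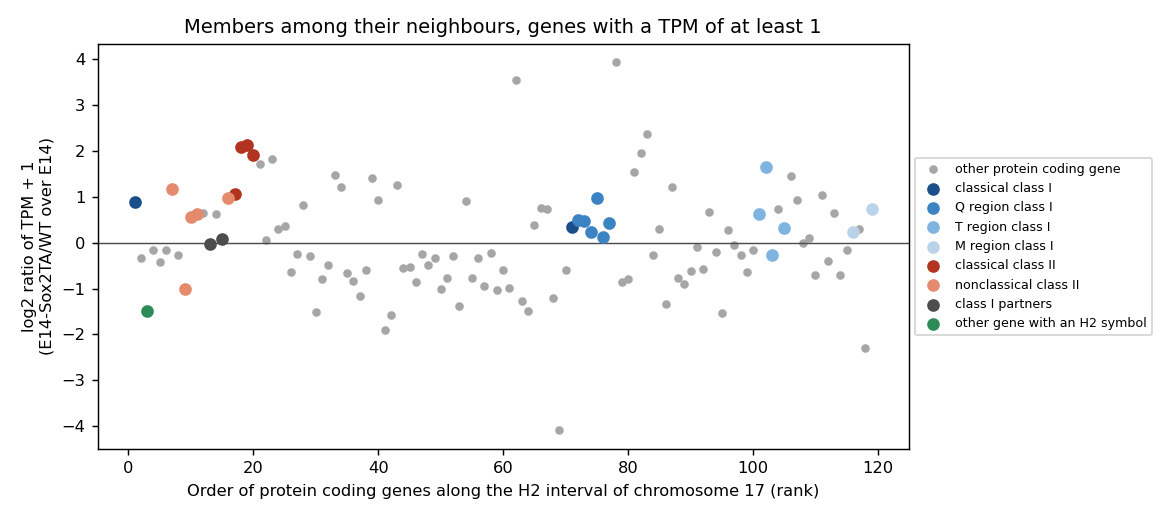
Log2 ratio of TPM + 1, E14-Sox2TA/WT over E14, for the 119 protein coding genes of the H2 interval with a TPM of at least 1, in their order along chromosome 17, with members coloured by class and neighbours in grey. The 4 classical class II genes form a block between 1.06 and 2.12, and the neighbours scatter on both sides of 0 with a median of -0.27.

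Genes that work beside the members were taken as lists. Peptide loading and trimming had 0 of 4 genes called, beside 10.8% higher and 18.7% lower among all genes that could be called. Its median log2 ratio was 0.11. Its most abundant genes are the chaperones Calr, with a TPM of 865 and 702, Pdia3, with 322 and 461, and Canx, with 181 and 266. The immunoproteasome and the PA28 activator, which shape peptides for class I, had 0 of 5 called and a median of 0.0088. Psme1 had a TPM of 175 and 123, Psme2 154 and 155, and Psmb9 7.07 and 11.7. In both lists single genes went either way, from -0.39 to 0.55 on the log2 scale in the first and from -0.51 to 0.65 in the second.

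Genes of class II processing were largely higher. Among the 6, 3 were called higher and 1 lower, beside 10.8% and 18.7% of all genes that could be called. Their median was 1.13. Ctsl, an endosomal protease that degrades the invariant chain in thymic epithelium, had a TPM of 121 and 322, a ratio of 2.67 (2.61 to 2.73). Lgmn, a protease of endosomes, had 160 and 258, a ratio of 1.62. Ctss, which degrades the invariant chain in antigen-presenting cells, had 72.8 and 181, and Ctsh had 35.2 and 128. Ctss and Ctsh were named after their values were seen. March1 was the gene called lower. It encodes the ligase that removes class II from the surface, and had 1357 and 320 reads and a TPM of 10.9 and 2.32, which was 4.68-fold lower.

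The class II promoter complex and interferon gamma signaling were also taken as lists. The part of either in the levels of the members was not tested. The transactivators Ciita and Nlrc5 are members and in neither list, and had ratios of 2.46 and 1.41. The complex that binds class II promoters (Rfx5, Rfxap, Rfxank, Creb1 and the NF-Y subunits) had 6 of 7 genes with a ratio below 1 and a median of -0.27, though 4 of 7 lay below 1 by FPKM or library total. Rfxap, a subunit of the RFX factor, had a TPM of 34.2 and 14.9, and was 2.29-fold lower, a call lost by FPKM and library total. Nfyc had 97.6 and 88.5, and Nfyb 39.1 and 57.4. Interferon gamma, the main inducer of Ciita, was not detected in either library, with 0 reads of Ifng. Its signaling genes had a median of -0.34, with 1 called higher and 1 lower of 6, beside 10.8% and 18.7% of all genes, so the calls show nothing particular to this list. Jak2, a kinase of the receptor, had a TPM of 38.0 and 11.9, and was 3.19-fold lower. Jak1 had 44.5 and 28.0, and Ifngr2 40.8 and 28.5. Irf1, a transcription factor that acts on class I promoters, had 13.9 and 35.5 and was the gene called higher, and was named after its value was seen.

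Class I-like genes outside the complex had a median of 0.41, with 2 called higher and 1 lower of 4. Among all genes that could be called, 10.8% were higher and 18.7% lower. Fcgrt, the heavy chain of the neonatal Fc receptor, had a TPM of 25.4 and 57.9, a ratio of 2.28 (2.12 to 2.45). Cd1d1, which presents lipids to NKT cells, had 22.5 and 9.77, and was 2.30-fold lower, a call lost by library total. Raet1d, a ligand of the NK receptor NKG2D, was named after its value was seen, with 4.87 and 11.0. These genes also pair with B2m in part, Fcgrt and Cd1d1 among them, and they differed in opposite directions.

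Most markers of macrophages and leukocytes had a ratio above 1. Of 11 macrophage markers, all 11 had a ratio above 1, and their summed TPM was 997 and 1685. Of the 9 that could be called, 2 were higher, Lyz2 and Mrc1, beside 10.8% of all genes, and Mrc1 reached a TPM of 10 in the E14-Sox2TA/WT library only. Lyz2 had a TPM of 457 and 943, C1qa 150 and 215, and Mrc1 8.42 and 20.7. Of the 5 leukocyte markers, 4 had a ratio above 1, and the sum was 62.1 and 87.5. Cd53 had 4.38 and 17.7 and Laptm5 15.5 and 24.9, while Coro1a had 35.0 and 28.4. All 11 macrophage markers lay above 1 by FPKM, library total, TMM and median-of-ratios scaling as well. Rac2, also called higher, was named after its value was seen, with 5.19 and 11.6. Lyz2 made up a large part of the macrophage sum. The ratios of the 11 markers ran from 1.14 for Adgre1, named after its value was seen, to 2.46 for Mrc1. Their median log2 ratio was 0.52. Transcripts of these markers were thus present in both libraries and higher in E14-Sox2TA/WT to unlike degrees. Not all were abundant. Itgam had a TPM of 2.50 and 5.46 and Fcgr1 3.81 and 7.69, both named after their values were seen.

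The other antigen-presenting cells left fewer transcripts. The 8 dendritic cell markers summed to a TPM of 12.9 and 22.9. Of these, Flt3, Clec9a, Xcr1 and Cd209a had 0 reads in E14, and between 8 and 50 in E14-Sox2TA/WT. Batf3 had a TPM of 1.82 and 7.48, and Zbtb46 8.02 and 7.73. The 5 B cell markers summed to 2.58 and 5.65, with Cd79b at 0.727 and 2.20 and Pax5 at 0.873 and 1.77. Ms4a1, which encodes the B cell marker CD20, had 0 and 4 reads and was thus near 0. T cell markers summed to 1.97 and 5.35, with Cd3e, Cd3d and Cd8a at 0 reads in E14 and at 40, 10 and 17 in E14-Sox2TA/WT. Cd2 had a TPM of 0.728 and 2.81 and Cd4 1.25 and 1.10. NK cell markers summed to 0.480 and 2.59, with Gzma at 0.425 and 1.18, and neutrophil markers to 10.04 and 26.5, with S100a8 at 2.23 and 8.72 and S100a9 at 6.81 and 15.4. The endothelial markers summed to 81.6 and 86.8, with a median log2 ratio of 0.037. In that list Pecam1 had 27.6 and 31.6, Emcn 22.6 and 23.2, and Tek 2.21 and 6.44. In every leukocyte list the summed level was higher in E14-Sox2TA/WT, by 1.41 to 5.39 times, and in the endothelial list by 1.06 times. The 5.39 belongs to the NK cell list, which had only 14 and 75 reads. These sizes moved with the scale. Summed reads scaled by library total were 1.86 times higher for the 5 leukocyte markers, 1.48 for dendritic cells and 1.22 for endothelium.

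**Figure D4:**
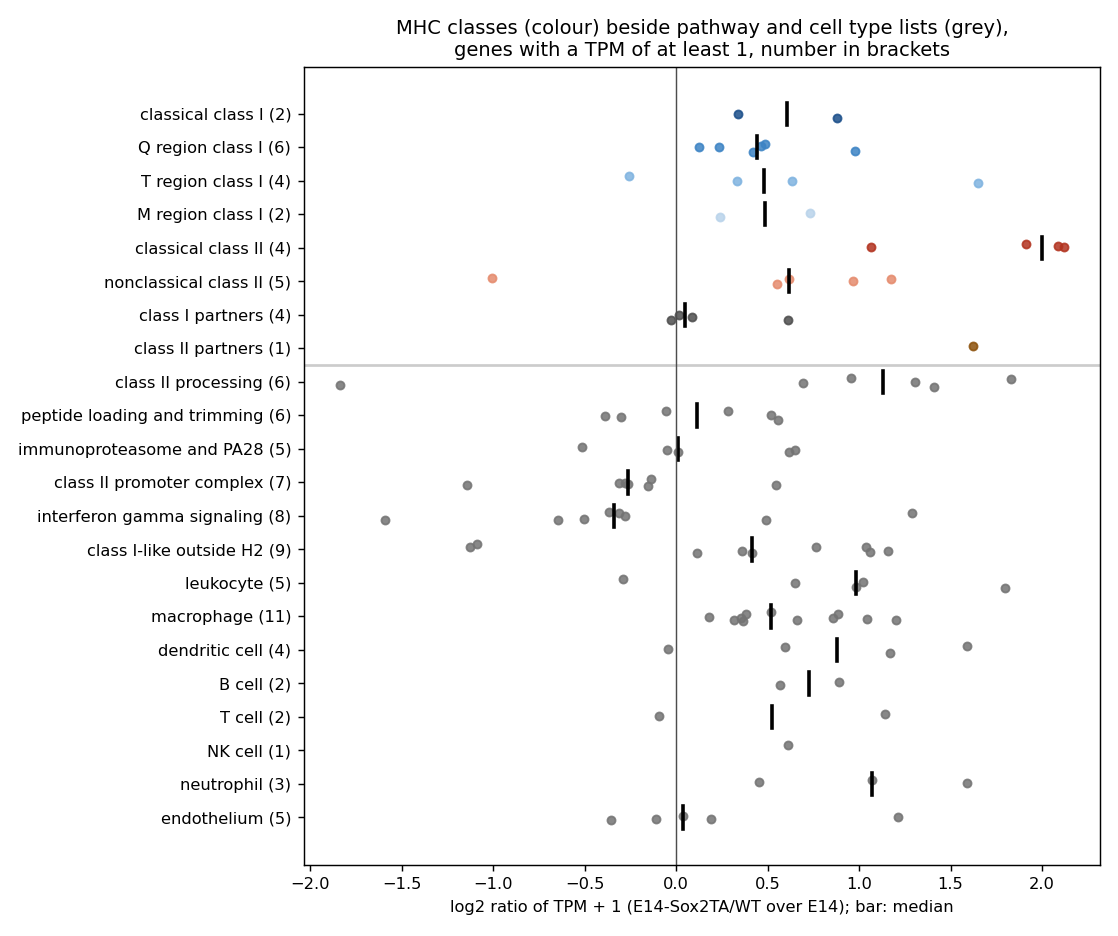
Log2 ratio of TPM + 1, E14-Sox2TA/WT over E14, for each gene with a TPM of at least 1, by MHC class in colour and by pathway or cell type list in grey, with a bar at the median where a row holds more than 1 gene. The classical class II median of 1.999 lies to the right of the class I medians (0.44 to 0.61) and of the macrophage (0.52) and leukocyte (0.98) medians.

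Beside Ptprc, the leukocyte marker CD45, the summed classical class II level stood at 30.7 times in E14 and 44.8 times in E14-Sox2TA/WT, and Cd74 at 15.0 and 19.2 times. Single markers varied widely in ratio, from 0.812 for Coro1a and 2.46 for Ptprc to 4.03 for Cd53, beside 3.60 for summed class II and 3.15 for Cd74. Ptprc was chosen after its values were seen. In a bulk sample more cells of a type and more RNA per cell cannot be told apart, and the part of leukocyte numbers in the class II result was not tested. The libraries also differed in other cells. All 6 markers of undifferentiated ESCs were called higher in E14-Sox2TA/WT, beside 10.8% of all genes that could be called. Their summed TPM was 70.2 and 1777, of which Dppa5a had 29.1 and 1144. Of the 6, Nanog, Tdgf1, Zfp42 and Esrrb reached a TPM of 10 in the E14-Sox2TA/WT library only. Of the teratoma tissue markers, Afp had a TPM of 0.614 and 151, Krt8 118 and 426, and Tubb3 1722 and 170. The part of these differences in the levels of the members was not tested.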

How the data were processed

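One table of gene expression covered both libraries. Each gene of the deposited table has a read count, an FPKM and a TPM value per library, which the authors made on mouse genome build mm10. The submitters' processing notes name bcl2fastq 2.20.0, Trimmomatic, HISAT2 2.1.0 and StringTie 2.1.3b. The annotation release and the strand setting are not given in the sources used here, so reads of overlapping genes may be shared. The read counts, FPKM and TPM were used as deposited. The notes also list hg19, which was not used here.

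The members, the gene lists and the rules were chosen with earlier results of these data known. A gene was called if its TPM differed by more than 2 times and either library had a TPM of 10 or more, after the methods of the study. This gave 1253 genes higher and 2167 lower, more in each direction than the study reported for its teratomas. The reason for the difference was not determined. No p-value was computed, since each genotype had 1 library. Clopper-Pearson intervals (95%) of the read ratio were shifted onto the TPM scale. Class and list medians used log2 of TPM + 1 for genes whose TPM reached 1 in either library. Every member with a TPM of at least 1 was named, as was any other member with over 10 reads. From each further list, the most abundant pair and the gene with the largest log2 ratio in either direction were named. Alternatives used FPKM, library totals, TMM factors (edgeR 4.0.16, R 4.3.3), median-of-ratios factors, other filters, folds and pseudocounts. Class members were classical class I (2), Q (6), T (5) and M region (12) genes, classical (5) and nonclassical class II (5), class I partners (5), class II partners (2) and H2-Ke6. Gene positions and promoters came from RefSeq GRCm38.p6, and shared 50-nt stretches from GENCODE transcripts of the same build. One further B cell marker is not reported here. The calls and intervals were tested on simulated data. Python 3.11.15, pandas 2.3.3, scipy 1.17.1 and matplotlib 3.10.9 were used.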

Additional observations from a re-analysis of the deposited data

How the results depend on the processing

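No paired analysis was possible because each genotype had 1 library, and for the same reason no library could be left out. Of 114 alternative values for calls and class medians, 105 stayed within the limits set for them and 9 moved. No class median changed direction, while call counts could only stay or move. For small classes the limit of the median was the full range of their members, which is wide and hard to leave. With no TPM filter 17 of 38 members with a read were higher, beside 31.4% of all 29148 such genes. If both libraries had to reach a TPM of 10, 4 of 12 were higher, beside 5.34%. The main rule gave 7 of 15, beside 10.8%. Members lower numbered 2 of 29 at a TPM minimum of 1, beside 18.9% of all genes. With no filter they numbered 2 of 38, beside 20.6%. With a fold above 3 they numbered 0 of 15, beside 8.77%. Without H2-Ke6, a setting chosen after seeing the data, they numbered 0 of 14, beside 18.7%. The main rule gave 1 of 15, beside 18.7%. The second member lower was H2-DMa, whose reads go the other way. The M region median log2 ratio was 0.76 by library total and 0.18 with no filter, and the classical class II median was 2.20 by library total. Among 116 values of single members, 50 moved beyond their counting interval and no called gene changed direction. H2-K1 passed 2-fold by FPKM, by library total and when centred on all genes (chosen after seeing the data). Below a ratio of 1 were H2-DMa, H2-Ke6, H2-T22 and Tap1 by TPM, and H2-Ke6 and H2-T22 by TMM, median-of-ratios and library total. Higher calls over all genes numbered 9156 with no filter, 3585 at a minimum of 1, 479 at 10 in both libraries and 663 with a fold above 3, and lower calls 6015, 3508, 1122 and 1015, against 1253 and 2167. The alternative that drops members by protein identity was not run, and members with 20% or more shared stretches were left out in its place, a choice made after seeing the data. The reads were aligned to the C57BL/6J genome although H2 genes are polymorphic, and the effect on each count was not tested. Depth limits statements on the 14 members with a TPM below 1.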

Other observations

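Rows with an H2 symbol that the table lists as pseudogenes numbered 5 and were not among the members. H2-Bl had 199 reads and a TPM of 6.65 in E14, and 1220 reads and a TPM of 36.5 in E14-Sox2TA/WT, a ratio of 5.49, which was above that of every member with a TPM of at least 10. H2-K2 had a TPM of 1.87 and 2.98, H2-T10 had 1.85 and 2.92, and H2-Q5 had 2.08 and 1.65. H2-M10.5-ps1 had no read in either library. These were named after their values were seen.

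The chromosomes of the members outside the complex differed in their median log2 ratio over protein coding genes with a TPM of at least 1. The median was -0.19 on chromosome 2, where B2m lies, -0.54 on chromosome 8 (Nlrc5), -0.056 on chromosome 16 (Ciita) and -0.25 on chromosome 18 (Cd74). Of 593 genes on chromosome 8 that could be called, 24 were higher and 219 lower, beside 10.8% and 18.7% of all genes. Several list genes lie there too. Among them Calr, March1, Rfxank and Tubb3 were lower in E14-Sox2TA/WT by TPM, and Cd209a and Zfp42 were higher. The part of the chromosome in these values was not tested.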
